A study of Mus musculus with 6 samples.

Results

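A set of 8 pituitary transcription factors was followed through sorted cells of the mouse anterior pituitary: Pou1f1 (Pit-1), Lhx3, Lhx4, Pitx1, Hesx1, Isl1, Gata2 and Foxl2. They were chosen by name, as the homeodomain factors of the Pit-1 lineage and related factors, and all 8 had a row among the 22869 genes with a symbol in the deposited table, each with a single transcript row. RNA came from pituitaries of female CD1 x C57BL/6 hybrid mice 6 to 8 weeks old, and cells had been sorted by FACS (fluorescence-activated cell sorting) into somatotropes, which secrete growth hormone, and lactotropes, which secrete prolactin, with 3 libraries of each titled biological replicates 1 to 3. All mice were untreated as far as the labels go; the sorting marker, any transgene behind it and the number of animals pooled per library are not given in the sources used here. Because nothing says that the libraries came from separate animals, p-values measure the spread between these libraries.

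Somatotropes, lactotropes and thyrotropes form one branch of the anterior pituitary, which depends on POU1F1, a protein with a POU domain and a homeodomain that activates the genes of growth hormone, prolactin, thyrotropin beta and the GHRH receptor, and also its own gene. The LIM homeodomain factors LHX3, LHX4 and ISL1 and the paired-like homeodomain factors PITX1 and HESX1 act earlier, when Rathke's pouch forms and its cells are committed, and some of them stay active in adult hormone cells. GATA2, a zinc finger factor, and FOXL2, a forkhead factor, are best known in the gland from gonadotropes and thyrotropes.

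The data separated the 8 factors into 4 whose mean level reached 1 FPKM (Pou1f1, Lhx3, Pitx1 and Isl1) and 4 below it (Gata2, Foxl2, Hesx1 and Lhx4). Isl1 was the only one of the 8 whose 3 somatotrope values all lay above its 3 lactotrope values. Pou1f1, Lhx3 and Pitx1 had overlapping values in both cell types. None of the 4 factors tested passed the threshold, which was also true of every other gene.

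Promoter sequences are shown for Pou1f1 and Prl because POU1F1 acts on both genes, and for Isl1 because its groups did not overlap. They come from RefSeq on GRCm38.p6, run 5′ to 3′ on the gene's strand, and cover 250 bases before the start and the first 30 after it. Capitals mark TATNCAT, a core of the POU1F1 site, on either strand in Pou1f1 (chr16:65520262-65520541, plus strand) and Prl (chr13:27057320-27057599, plus strand). In Isl1 (chr13:116309659-116309938, minus strand) they mark TAATCC, the PITX core, and AGATAA, one form of the core bound by GATA factors. Other forms of the GATA core were not searched for, marked or counted.
Pou1f1: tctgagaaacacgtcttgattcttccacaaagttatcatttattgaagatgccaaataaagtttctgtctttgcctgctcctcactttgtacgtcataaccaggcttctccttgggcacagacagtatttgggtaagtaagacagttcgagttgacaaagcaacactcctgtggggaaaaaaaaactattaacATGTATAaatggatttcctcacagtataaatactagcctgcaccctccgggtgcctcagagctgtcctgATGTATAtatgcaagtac
Prl: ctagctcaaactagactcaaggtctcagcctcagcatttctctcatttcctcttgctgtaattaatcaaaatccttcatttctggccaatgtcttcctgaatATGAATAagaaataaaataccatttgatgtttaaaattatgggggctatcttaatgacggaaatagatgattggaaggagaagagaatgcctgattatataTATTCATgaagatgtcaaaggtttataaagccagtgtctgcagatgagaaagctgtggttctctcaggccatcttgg
Isl1: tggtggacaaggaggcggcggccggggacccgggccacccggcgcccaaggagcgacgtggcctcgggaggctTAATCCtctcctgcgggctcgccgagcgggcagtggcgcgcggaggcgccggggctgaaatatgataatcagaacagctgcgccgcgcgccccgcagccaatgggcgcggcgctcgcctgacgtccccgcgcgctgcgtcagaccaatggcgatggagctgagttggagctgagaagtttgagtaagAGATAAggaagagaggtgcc
Pou1f1 had 2 windows, and the one shown held TATNCAT on the minus strand at -57 to -51 and again at 13 to 19. Positions are counted from the start with no base 0. The other Pou1f1 window held none of the 5 motifs searched for. Prl held it at -148 to -142 on the minus strand and at -47 to -41 on the plus strand. Hesx1 held it at -188 to -182, overlapping a copy on the other strand at -187 to -181, and at 6 to 12. Of all 32851 windows of 280 bases in the table, 8.47% held TATNCAT on either strand. Isl1 held TAATCC at -177 to -172, as 6.77% of windows did on either strand, and AGATAA at 11 to 16, as 10.7% did. The LIM homeodomain core TAATTA, which is the same on both strands, was found in Prl at -192 to -187 and in 5.09% of windows. The forkhead core GTAAACA was in none of the members' windows and in 3.49% of all. No 2 different motifs overlapped in these windows, and 7 of the 8 factors had at least 1 window in the table; Lhx3, Lhx4, Gata2 and Foxl2 held none of the 5 motifs. A match only says that these letters are present.

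The sort could be read from the hormones. Gh was at 19384 to 84909 FPKM in the somatotrope libraries and at 3954 to 7623 FPKM in the lactotrope libraries, and Prl at 25171 to 195325 FPKM in lactotropes and 8709 to 24481 FPKM in somatotropes, so each library also held the other hormone's transcript. FPKM counts fragments relative to transcript length and to the library's mapped fragments, so the levels of different genes were set side by side. Amplification bias may still shift genes against each other, and how reads were counted is not stated. Prl took 46.6%, 12.1% and 53.0% of the summed FPKM in lactotropes 1, 2 and 3. Of the tested genes, lactotrope 3 had 14.9% listed at 0 and each of the others between 0.232% and 2.95%. Depth could be recovered only in replicate 1, at 29260000 fragments in somatotrope 1 and 17640000 in lactotrope 1, and is unknown for the others. Values of named genes in somatotropes 2 and 3 and lactotrope 3 often held 1 more decimal than in the other libraries. The extra digit was a 5. Examples were Foxl2 at 0.26665 FPKM in somatotrope 2, Pitx1 at 9.45835 FPKM in somatotrope 3 and Ldb2 at 2.20645 FPKM in lactotrope 3. Whether each of these 3 columns is a mean of 2 values was not tested. The 6 columns may therefore differ in noise and in how often a gene is listed at 0.

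Pou1f1 was the most abundant of the 8 factors in somatotrope 1 and in all 3 lactotrope libraries. Its level was 244.8, 21.0 and 19.9 FPKM in somatotropes 1 to 3 and 257.9, 34.6 and 66.7 FPKM in lactotropes 1 to 3. Both replicate 1 libraries stood far above the other 4, whichever the cell type, and within each replicate number the lactotrope library was the higher. Somatotropes averaged 95.2 ± 130 FPKM and lactotropes 120 ± 121 FPKM (SD, n = 3), so the spread within a cell type was as large as the mean. On the log2(FPKM + 1) scale, on which all differences here are given as somatotrope minus lactotrope, the difference was -0.82 (SE 0.94; limma adjusted p = 1.00; exact permutation p = 0.5, two-sided). By replicate number it was -0.07, -0.70 and -1.70. It was -2.00 without somatotrope 1 and -0.02 without lactotrope 1. Pou1f1 was lower in somatotropes in all 3 pairs, as were 11.2% of tested genes.

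The contrast between replicate numbers was larger for Pou1f1 than the contrast between cell types. Its mean over the replicate 1 libraries was 7.07 times its mean over the other 4, where the median tested gene had a ratio of 2.16. In both replicate 1 libraries, 57.7% of tested genes were above all 4 others, and 9.14% were at least as far above as Pou1f1. After median-ratio scaling of the libraries the ratio for Pou1f1 was 2.93 against a median of 0.988, and Pou1f1 was still above the 4 others in both replicate 1 libraries, as 23.5% of tested genes then were. Lhx3, Pitx1 and Isl1 had ratios of 0.749, 1.40 and 0.519 as deposited, and of 0.358, 0.608 and 0.260 after that scaling. In the same libraries the summed level of 10 macrophage and leukocyte markers was 285 and 832 FPKM in somatotrope 1 and lactotrope 1, against 3002 to 12798 FPKM in the other 4; the part of these cells in the Pou1f1 values was not tested. All 10 markers were lower in somatotropes in all 3 pairs, as were 11.2% of tested genes, and 0 passed the test. The most abundant were Cd74, with 224, 4897 and 2252 FPKM against 581, 9644 and 3085 FPKM, and C1qb.

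Lhx3, a LIM homeodomain factor required for the pouch and for most hormone lineages, was second to Pou1f1 in 4 libraries and above it in somatotropes 2 and 3. Its level was 19.5, 54.5 and 29.8 FPKM in somatotropes 1 to 3 and 27.2, 25.7 and 14.6 FPKM in lactotropes 1 to 3. Only somatotropes 2 and 3 lay above every lactotrope library, and somatotrope 1 lay between lactotropes 3 and 2. The log2 difference was 0.53 (SE 0.59; limma adjusted p = 1.00; exact permutation p = 0.4), and by replicate number it was -0.46, 1.06 and 0.98. It was 0.14 without somatotrope 2 and 0.86 without somatotrope 1. The deposited row is one transcript, and the coordinates show no other row overlapping it.

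Pitx1, which marks the pouch and works with POU1F1 on hormone promoters, had the narrowest range of the 4 on a fold scale. Its level was 7.07, 6.88 and 9.46 FPKM in somatotropes 1 to 3 and 17.1, 6.57 and 11.5 FPKM in lactotropes 1 to 3. Lactotropes 1 and 3 were above all somatotropes and lactotrope 2 was below all of them. The log2 difference was -0.45 (SE 0.62; limma adjusted p = 1.00; exact permutation p = 0.4), and by replicate number it was -1.16, 0.06 and -0.26.

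Isl1, a LIM homeodomain factor of the early pouch that is later known from thyrotropes and gonadotropes, had the largest difference of the 8. Somatotropes 1, 2 and 3 held 3.22, 8.49 and 5.95 FPKM, and lactotropes 1, 2 and 3 held 1.12, 2.30 and a listed 0. Every somatotrope library was above every lactotrope library, and in each replicate number the somatotrope library was the higher. Somatotropes averaged 5.89 ± 2.63 FPKM (SD, n = 3); the lactotrope mean of 1.14 FPKM and the log2 difference both include the listed 0 of lactotrope 3. The log2 difference was 1.77 (SE 0.74; limma unadjusted p = 0.0329, adjusted p = 1.00), and by replicate number it was 0.99, 1.52 and 2.80. By an exact permutation test p was 0.1, which no comparison of 3 with 3 libraries can go below. Isl1 was thus 1 of 4 tested factors whose groups did not overlap, against 3.66% of tested genes, or 2.51% with somatotropes higher, and 0 of 4 were apart with lactotropes higher, against 1.15%. Isl1 and Pou1f1, 2 of the 4, had the same sign in all 3 pairs, as did 34.1% of tested genes, and 22.9% were higher in somatotropes in each pair, as Isl1 was.

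**Figure D1:**
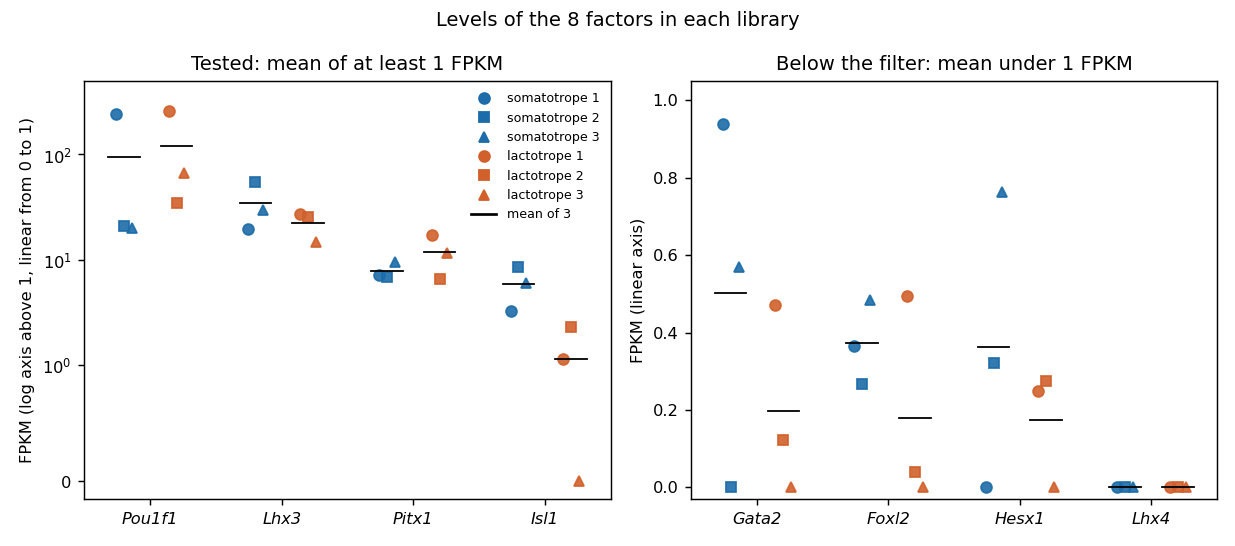
FPKM of the 8 factors in each library, coloured by cell type, with a symbol for each replicate number and the mean of 3 drawn as a black line; the left axis is logarithmic above 1 and linear below, the right axis is linear. Pou1f1 is near 250 FPKM in both replicate 1 libraries, Isl1 is the only factor with all 3 somatotropes above all 3 lactotropes, and Lhx4 is listed at 0 throughout.

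The size of the Isl1 difference varied with its low lactotrope values, and the separation of the groups with scaling. Without lactotrope 3 it was 1.30, and with a pseudocount of 0.1 it was 3.07. After median-ratio scaling Isl1 stood at 1.90 in somatotrope 1 and 2.89 in lactotrope 2, so the groups then overlapped, while the log2 difference was 1.76. Rescaling after leaving out Gh, Prl and haemoglobin kept them apart, at 2.61 against 2.28 for those same libraries.

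Markers of other cell types were present in the same libraries. Stem and folliculostellate markers, 9 of 9 with a row, summed to 254, 1674 and 1141 FPKM in somatotropes 1 to 3 and to 142, 661 and 158 FPKM in lactotropes 1 to 3, so the groups overlapped. Of 8 tested, 0 passed and 6 were higher in somatotropes in all 3 pairs, as were 22.9% of all tested genes. Sox2 and Sox9 of this list are also among the pituitary transcription factors described further on. The most abundant were Mia1, at 127, 1432 and 843 FPKM against 64.9, 453 and 123 FPKM, and Cyp2f2, at 79.5, 135.0 and 185 FPKM against 42.5, 133 and 25.3 FPKM. Sox2, a stem cell factor, was at 4.43, 7.68 and 3.56 FPKM in somatotropes and 2.12, 5.68 and 0.00410 FPKM in lactotropes. S100b, below the filter and not tested, was at 0.0205, 0.102 and 5.32 FPKM in somatotropes 1 to 3. In lactotropes 1 to 3 it was at a listed 0, 0.300 FPKM and a listed 0, so its values overlapped. Gonadotrope markers, 5 of 6 with a row, summed to 309 to 1780 FPKM in somatotropes and 134 to 753 FPKM in lactotropes, most of it Cga, the shared alpha subunit, followed by Lhb at 2.15 to 77.7 and 2.90 to 15.8 FPKM. Thyrotrope markers, 4 of 4 with a row, summed to 308 to 1729 and 132 to 830 FPKM, with Tshb next to Cga at 11.2 to 52.4 and 6.11 to 83.6 FPKM. Corticotrope and melanotrope markers, 6 of 6 with a row, summed to 96.2, 1214 and 5778 FPKM in somatotropes 1 to 3. In lactotropes 1 to 3 they summed to 879, 554 and 426 FPKM, so the groups overlapped. Most of these sums was Pomc, and 0 of the 4 tested had the same sign in all 3 pairs. None of the gonadotrope markers and 1 of the 3 tested thyrotrope markers, Dio2, was higher in somatotropes in all 3 pairs. Gnrhr and Nr5a1, which define gonadotropes, were listed at 0 in lactotrope 3, as were 14.9% of tested genes. Nr5a1, with a mean of 0.917 FPKM, was not among the tested genes. The share listed at 0 among genes as low as these was not computed. The other gonadotrope markers with a row, Cga, Lhb and Fshb, were at 285, 15.8 and 2.90 FPKM in that library. Trhr was at 0 in somatotropes 2 and 3 and lactotropes 2 and 3. The part of these cells in the values of Isl1, Lhx3 and Pitx1 was not tested. Fewer cells of a type and less RNA per cell cannot be told apart in bulk samples.

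**Figure D2:**
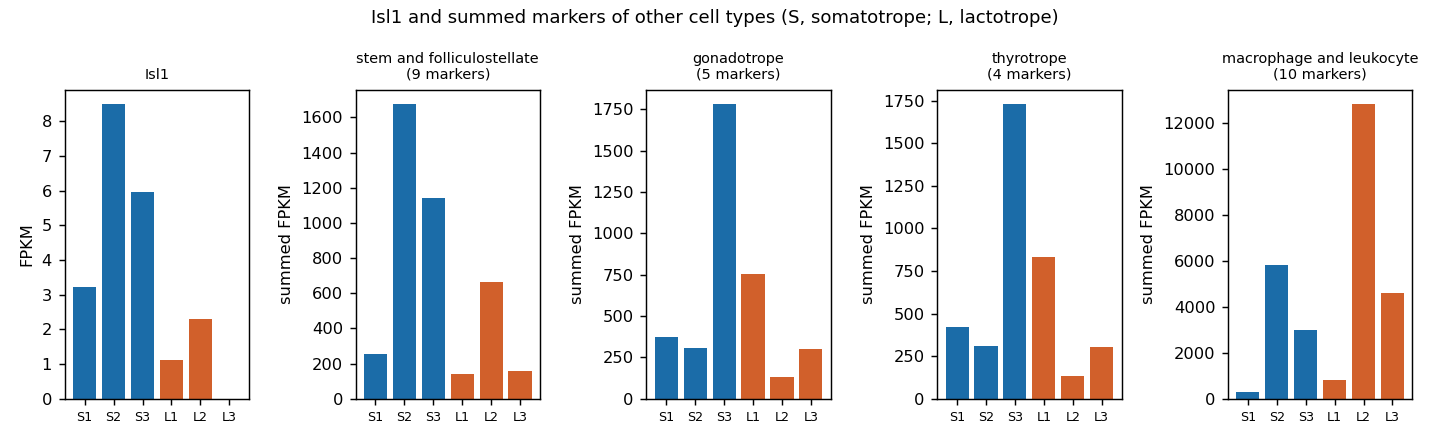
Isl1 in FPKM and the summed FPKM of markers of 4 other cell groups in each library (bars from 0; S, somatotrope; L, lactotrope; 1 library per bar, no error). Somatotropes 2 and 3 are highest for Isl1 and for the stem and folliculostellate sum, while the leukocyte sum is highest in lactotrope 2 at 12798 FPKM.

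**Figure D3:**
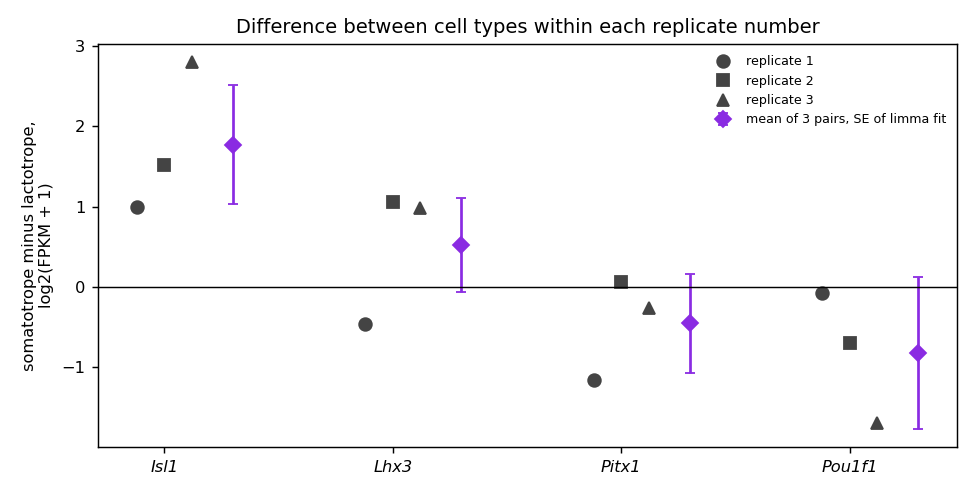
Somatotrope minus lactotrope on the log2(FPKM + 1) scale for the 4 tested factors, 1 symbol per replicate number. The diamond is the mean of the 3 pairs and the bar is the SE of the limma fit without the replicate block. The bar is therefore not the spread of the 3 pairs. With the block the SE was 0.34 for Pou1f1, 0.36 for Lhx3, 0.35 for Pitx1 and 0.45 for Isl1. All 3 Isl1 points lie above 0 and all 3 Pou1f1 points below it, while Lhx3 and Pitx1 have points on both sides.

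Gata2, Foxl2, Hesx1 and Lhx4 had means under 1 FPKM over the 6 libraries and were not tested. For Gata2, somatotropes 1, 2 and 3 held 0.938, a listed 0 and 0.570 FPKM, and lactotropes 1, 2 and 3 held 0.472, 0.123 and a listed 0. Its values overlapped, with the highest in somatotrope 1. Gata2 is also known from endothelial cells and mast cells. In the same libraries 8 endothelial markers summed to 1.21 to 3.67 FPKM in somatotropes and 0 to 4.02 FPKM in lactotropes. The 6 mast cell markers summed to at most 1.26 and 3.26 FPKM, with Mcpt4 at 0 in all 6 libraries. Gata2 itself was at most 0.938 FPKM, and the part of these cells in its values was not tested.

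For Foxl2, somatotropes 1, 2 and 3 held 0.366, 0.267 and 0.485 FPKM, and lactotropes 1, 2 and 3 held 0.495, 0.0396 and a listed 0. Lactotrope 1 was the highest of the 6, so the groups overlapped. Over the 2520 bases of its row, the replicate 1 values correspond to 27 fragments in somatotrope 1 and 22 in lactotrope 1, with exact Poisson 95% intervals of 0.241 to 0.533 and 0.310 to 0.749 FPKM that cover counting error only. With 1 library of each cell type, these intervals do not test a difference between the cell types.

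For Hesx1, a repressor of the early pouch, somatotropes 1, 2 and 3 held a listed 0, 0.321 and 0.763 FPKM, and lactotropes 1, 2 and 3 held 0.249, 0.276 and a listed 0. No cell type held the higher values throughout. Lhx4, the close relative of Lhx3, was listed at 0 in all 6 libraries, including somatotrope 1, where 18592 genes had a value above 0.

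In order of their mean log2(FPKM + 1), the 7 factors with any value were Pou1f1, Lhx3, Pitx1, Isl1, Gata2, Foxl2 and Hesx1. Lhx3 exceeded Pitx1 in 6 of 6 libraries by 1.42 ± 0.89 (SD over libraries), and Isl1 exceeded Gata2 in 5 of 6 by 1.43 ± 1.16. Pitx1 exceeded Isl1 in 5 of 6 by 1.53 ± 1.51, barely beyond the spread. These 3 steps became 2 under each of the scalings run. Pou1f1 and Lhx3 did not differ beyond their spread (1.24 ± 2.03), nor did Gata2 and Foxl2 (0.06 ± 0.27) or Foxl2 and Hesx1 (0.02 ± 0.29). Pou1f1 stood to Lhx3 in a ratio of 12.6, 0.385 and 0.666 across somatotropes 1 to 3, and of 9.49, 1.35 and 4.56 across lactotropes 1 to 3. Pou1f1 lay above at least 93.7% of all genes with a symbol in each library, and Lhx3 above at least 88.6%.

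The limma test called 0 of the 4 factors at the adjusted threshold of 0.05, and 0% of the 11642 genes tested. At an unadjusted p under 0.05 there was 1 of 4, Isl1, against 0.962% of tested genes. When the replicate number was a block, unadjusted p was under 0.05 for 1 of 4 with somatotropes higher (Isl1), where 7.17% of tested genes were, and for 1 of 4 with lactotropes higher (Pou1f1), where 3.75% were. With limma's array weights 0 of 4 passed, where 0.0773% of tested genes did, and with these weights and the replicate number as a block 0 of 4, where 0.369% did. The median log2 difference was 0.04 over the 4 factors and 0.18 over all tested genes.

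Partners and targets of the factors were read from lists of genes. Of 10 hormone and receptor genes that these factors are known to act on, 9 were tested and 0 passed, with a median log2 difference of 0.79. Ghrhr, the GHRH receptor, is a POU1F1 target and, like Gh and Prl of this list, also a marker of a sorted cell type. Ghrhr was at 110.0, 26.3 and 22.6 FPKM in somatotropes 1 to 3 and 9.05, 2.88 and a listed 0 FPKM in lactotropes. Its groups did not overlap, and its log2 difference of 3.61 (SE 0.87; limma adjusted p = 1.00) was the largest of the list. Gnrhr, the gonadotrope receptor gene on which FOXL2 acts, was at 3.20, 1.64 and 5.91 FPKM in somatotropes and 3.99, 0.413 and a listed 0 FPKM in lactotropes, and its values overlapped. Fst, another gene on which FOXL2 acts, was listed at 0 in 5 libraries.

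LIM homeodomain proteins work through LDB adaptors and are held back by LIM-only (LMO) proteins, and HESX1 acts with TLE corepressors. Of 16 such partners 14 were tested and 0 passed, with a median log2 difference of 0.30. Lmo4, a LIM-only gene, was at 20.9, 15.7 and 12.4 FPKM in somatotropes 1 to 3 and 7.18, 9.73 and 3.25 FPKM in lactotropes 1 to 3, and like Isl1 its groups did not overlap, with a log2 difference of 1.24 (SE 0.62; limma adjusted p = 1.00). Ldb2, an adaptor, was lower in somatotropes in all 3 pairs, at 0.784, 0.0366 and 0.0592 FPKM against 4.91, 0.115 and 2.21 FPKM. Lmo1 had a log2 difference of 1.50 (SE 0.86) and Tle1 of 1.18 (SE 0.81), and the values of both overlapped between cell types. Ldb1, the general LIM adaptor, was at 18.7, 4.74 and 3.47 FPKM in somatotropes and 16.4, 7.09 and 5.74 FPKM in lactotropes.

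Of 15 co-regulators of POU1F1 and GATA2, 13 were tested and 0 passed, with a median log2 difference of 0.10 and no gene whose groups were apart. Kdm1a, a histone demethylase, had the smallest p of the list and a log2 difference of 0.93 (SE 0.85), with 31.7 FPKM in lactotrope 1 and 1.19 FPKM in lactotrope 3. Sin3a, a corepressor scaffold, had -0.77 (SE 0.78), Ctnnb1, which encodes beta-catenin, 0.49 (SE 0.65), and Hdac1, a histone deacetylase, 0.45 (SE 0.63). Zfpm1 and Zfpm2, the partners of GATA factors, were under 1 FPKM in all libraries but lactotrope 1, where Zfpm2 was at 1.17 FPKM.

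Of 19 other pituitary transcription factors, 13 were tested and 0 passed, with a median log2 difference of 0.37. Egr1, an immediate early gene that serves Lhb in gonadotropes, was lower in somatotropes in all 3 pairs, with a log2 difference of -1.22 (SE 0.68). Sox2 and Sox9, stem cell factors, had 1.12 (SE 0.81) and 0.84 (SE 0.80) and were higher in somatotropes in all 3 pairs. Among close relatives of the 8 factors, the GATA family genes Gata1, Gata4 and Gata5 were listed at 0 in all 6 libraries.

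**Figure D4:**
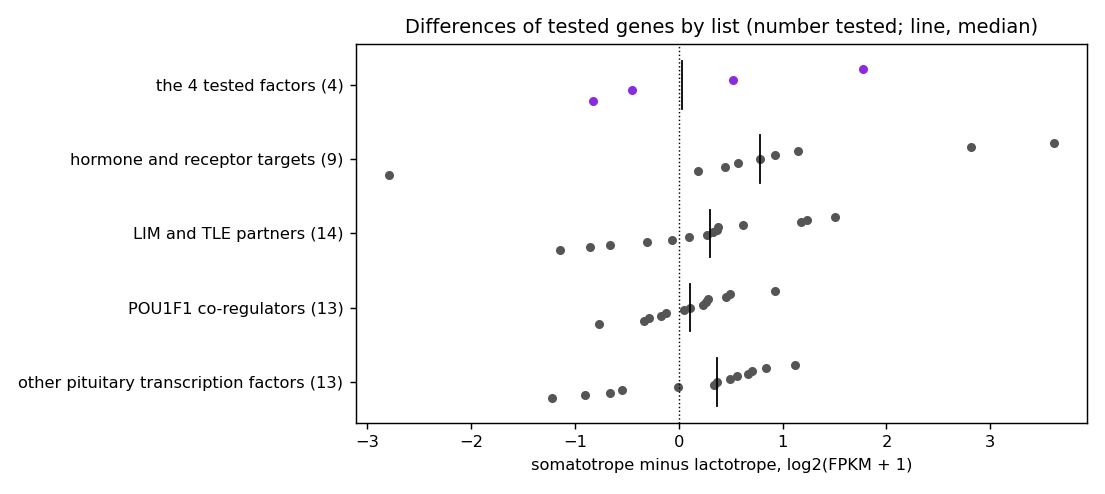
Somatotrope minus lactotrope on the log2(FPKM + 1) scale for each tested gene of the 4 tested factors and of 4 lists of targets, partners and other factors (1 point per gene; black line, list median). The 4 factors range from -0.82 for Pou1f1 to 1.77 for Isl1, and the widest list is that of the hormone and receptor targets, from -2.79 for Prl to 3.61 for Ghrhr. That list holds Gh, Prl and Ghrhr, which are also markers of the sorted cell types, so its width is not a result about the factors.

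Genes with the most similar pattern were sought by Pearson correlation of log2(FPKM + 1) over the 6 libraries, which share cell types and replicate numbers and are not 6 independent points. For Pou1f1, 462 tested genes had a correlation over 0.95, led by Clip3 (0.9998), 1600012H06Rik (0.998) and 1110037F02Rik (0.998). Clip3, a microtubule-associated protein gene, was at 13.7, 0.921 and 0.866 FPKM in somatotropes and 14.3, 1.79 and 4.04 FPKM in lactotropes, with the same high replicate 1 as Pou1f1. For Lhx3 there were 42 such genes, led by Cyb5r3 (0.993), Cyp2j9 (0.993) and 5033411D12Rik (0.992), which were highest in somatotrope 2. For Isl1 there were 73, led by R3hcc1 (0.995), 5730469M10Rik (0.991) and Emp2 (0.987). For Pitx1 there were 6, led by Ddo (0.990), Tmeff2 (0.983) and Nr4a1 (0.978), a nuclear receptor gene induced by activity, at 113 FPKM in lactotrope 1 and 18.0 to 53.4 FPKM in the other 5 libraries.

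In mm9, Pou1f1 (NM_008849) lies at chr16:65520964-65534316 on the plus strand, Lhx3 (NM_001039653) at chr2:26055732-26062076 on the minus strand, Pitx1 (NM_011097) at chr13:55926415-55932786 on the minus strand and Isl1 (NM_021459) at chr13:117088478-117099896 on the minus strand. No other row of the table overlapped any of the 8 factors' rows.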

How the data were processed

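The authors deposited FPKM values in a single table of 30399 transcripts by 6 libraries, whose columns match the sample descriptions. The submitters' processing notes name TopHat, edgeR, bcl2fastq (2.17.1.14) and mm9 without their roles, and how reads were counted is not stated there. The NuGen Ovation V2 kit amplified the RNA, per the labels' protocols, so amplification bias may affect the values. The 889 rows with no symbol were left out, and each gene took its row with the highest mean. Differences were tested on log2(FPKM + 1) with limma 3.58.1 in R 4.3.3 (intensity trend, Benjamini-Hochberg adjustment, threshold 0.05) over the 11642 genes whose mean reached 1 FPKM, after checks on simulated data. This pseudocount understates changes of low genes. By the numbers in the titles, the replicate number was also fitted as a block, and pairs here are libraries with the same number. Their deviations from the mean of their cell type correlated over genes at 0.763, 0.613 and 0.341 for replicates 1, 2 and 3. Deviations within a cell type balance out, so a shared difference of replicate 1 alone would raise the other correlations. Libraries with unlike numbers were not correlated. The check therefore cannot tell whether replicates 2 and 3 are true pairs.

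The depth of replicate 1 came from single-exon olfactory receptor genes, whose low values stood within 0.1 of whole fragments in 100% of 213 and of 23 cases. No libraries were duplicates: at most 2.35% of genes were within 1% of each other in any pair. The factors and lists were chosen with earlier results of these data known. Named genes are the 8 factors, up to 4 genes with the smallest p per pathway list and partners that a sentence needs, the 2 most abundant markers of a cell type list, and the 3 nearest patterns per tested factor; others, among them those listed at 0 and Sox2, S100b, Mcpt4, Trhr and Dio2, were chosen after their values were seen. Alternatives were other pseudocounts, filters, scalings, row sums, weights, the block, and leaving out libraries. The contrast of replicate 1 with the other libraries, also under 2 scalings, was chosen after seeing the data. Some genes of the lists are not reported here by name.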

Additional observations from a re-analysis of the deposited data

How the results depend on the processing

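The number of tested factors past the threshold was 0 in all 20 alternatives. The replicate block changed no call: its adjusted p was 0.282 for Isl1, 0.439 for Pou1f1, 0.601 for Lhx3 and 0.653 for Pitx1, and it called 0 genes, with 2 of the 4 factors (Isl1 and Pou1f1) and 10.9% of tested genes at an unadjusted p under 0.05. The count over all genes was 0 in limma as reported, 9 with array weights, 43 with array weights and the block, and 0 to 3 when libraries or pairs were left out, 3 without somatotrope 1. Over all alternatives the log2 difference of Isl1 kept its sign (1.26 to 3.07; adjusted p 0.140 to 1.00), as did that of Lhx3 (0.14 to 1.02) and Pou1f1 (-2.00 to -0.02). That of Pitx1 reversed to 0.10 with array weights. These weights were 6.24 for lactotrope 2, which held the lowest Pitx1 value at 6.57 FPKM, and 0.292 and 0.492 for lactotropes 1 and 3. Why the weights differed was not tested. With a pseudocount of 0.1 the untested difference was 0.82 for Gata2 and 1.20 for Foxl2, against 0.29 and 0.24, and that of Hesx1 ran from -0.14 to 0.43 over left-out libraries. Lhx4, at 0 throughout, gave no value. With unknown depth in 4 libraries, a listed 0 is not absence.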
